A study of Mus musculus with 4 samples.

Results

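MicroRNA-191 and microRNA-425 are made from 2 neighbouring hairpins of 1 transcribed stretch of mouse chromosome 9. Each hairpin can release a miRNA from its 5p and from its 3p arm, so the cluster has 4 mature products: mmu-miR-191-5p, mmu-miR-191-3p, mmu-miR-425-5p and mmu-miR-425-3p. The 4 rows were chosen by name from 530 miRNA names listed in at least 1 library. The cluster was put forward with the molecule counts of these same libraries, MI against sham, already known. The contrast between MI and sham is therefore a description here, and no p-value is offered for a member.

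The libraries hold small RNA of small extracellular vesicles from the plasma of wild-type mice on a normal diet, collected at 12 h. There were 2 MI libraries, from mice given a myocardial infarction (MI, the death of heart muscle that has lost its blood supply) by surgery, and 2 sham libraries, from mice after the control operation. Age, sex and strain are not in the labels, nor whether each library came from its own animals, so the spread between replicates may be technical. Reads carried unique molecular identifiers (UMIs), random tags that let copies of 1 captured molecule be counted once, and levels are given as UMIs per 1e6 miRNA UMIs of the same library (CPM). The MI libraries had 218960 and 135334 miRNA UMIs and the sham libraries 377031 and 160451, so sham replicate 1 was the deepest. No library lists a miRNA with fewer than 10 UMIs. Over the 189 miRNAs listed in all 4 libraries, the chi-square divided by its degrees of freedom was 10.5 for the MI pair and 16.0 for the sham pair, so replicates differed beyond sampling noise.

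A miRNA is cut from its hairpin by the nucleases Drosha and Dicer, after which 1 arm is usually kept in an Argonaute protein and the other is lost. The kept arm finds its targets chiefly through the seed, bases 2 to 8 from its 5′ end. Both miR-191 and miR-425 are common in blood cells and plasma, and both serve as reference miRNAs when plasma miRNAs are measured by qPCR. In human cells miR-425 represses NPPA, which encodes atrial natriuretic peptide, a hormone of the heart. Hairpins of 1 cluster are copied as 1 primary transcript, but the amounts of their mature forms need not be equal.

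The 4 mature sequences are shown because their seeds decide which targets each can pair with. They are RefSeq's (GRCm38.p6), written 5′ to 3′ with the seed in capitals.
mmu-miR-191-5p: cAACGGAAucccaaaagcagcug
mmu-miR-191-3p: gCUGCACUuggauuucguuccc
mmu-miR-425-5p: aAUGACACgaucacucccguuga
mmu-miR-425-3p: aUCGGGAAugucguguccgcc

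No seed is shared among the 4 arms, and miR-191-5p and miR-425-5p have the same base at 5 of 23 positions counted from the 5′ end. Of 530 listed names, 456 had a sequence in the RefSeq table, and none of these shared a seed with a member. Among all 1679 mature miRNAs of that table, 1 shares the seed of miR-425-5p. It was listed in no library and is shown for its match to miR-425-5p, with the seed in capitals.
mmu-miR-489-3p: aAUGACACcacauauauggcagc

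The hairpins are shown with both mature arms in capitals, to place the arms against each other.
Mir191: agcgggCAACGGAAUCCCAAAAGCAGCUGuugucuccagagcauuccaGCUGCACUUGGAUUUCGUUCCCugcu
Mir425: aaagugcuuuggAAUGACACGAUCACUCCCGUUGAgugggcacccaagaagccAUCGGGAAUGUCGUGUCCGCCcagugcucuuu

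Mir191 lies on the plus strand at chr9:108568319-108568392 and Mir425 at chr9:108568777-108568861 (GRCm38), 384 bases apart. In the GENCODE M21 annotation both hairpins lie within the exon of 1 of the 2 transcripts of the long non-coding gene 4833445I07Rik (chr9:108567533-108569174, plus strand). The protein-coding gene Dalrd3 starts 1024 bases downstream of Mir425 in that annotation. RefSeq draws Dalrd3 longer, from 108567484 to 108572773, and both hairpins then lie inside it. An unnamed miRNA gene on the minus strand, Gm24083, overlaps Mir191. No transcript of these genes was among the tRNA and other RNA features that the libraries list.

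Both MI libraries had less miR-191-5p than both sham libraries, in CPM. miR-425-5p was higher in MI replicate 1 than in either sham library, but in MI replicate 2, at 687 CPM, it was nearly equal to sham replicate 2, at 679 CPM. The 4 arms differed greatly in level. miR-191-5p made up 91.9% and 94.1% of the cluster's UMIs in the MI libraries, and 97.1% and 96.6% in the sham libraries. It took rank 11 and 12 among the miRNAs of the MI libraries and rank 10 in each sham library, while miR-425-5p took rank 57 and 76 in MI and rank 93 and 72 in sham libraries. All 4 arms together held 1.55% and 1.63% of the miRNA UMIs in MI libraries, and 2.67% and 2.53% in sham libraries. In vesicles, fewer particles that carry a miRNA and fewer copies per particle cannot be told apart. Nor can either be told apart from a rise of other miRNAs, because CPM is a share of the miRNA UMIs of a library.

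miR-191-5p had 14281 and 15332 CPM in the MI libraries, against 25953 and 24462 CPM in the sham libraries. These rest on 3127 and 2075 UMIs in MI and on 9785 and 3925 UMIs in sham libraries. Both MI libraries lay below both sham libraries, and the distance between the groups was far larger than that between replicates. The 95% exact Poisson intervals, which cover counting error only, reached at most 16007 CPM in MI and at least 23703 CPM in sham libraries. The mean was 14807 ± 743 CPM in MI and 25208 ± 1054 CPM in sham libraries (SD, n = 2 each), a 1.70-fold lower mean after MI. The edgeR fit across all miRNAs gave a log2 fold change of -0.75 (SE 0.12). Of the miRNAs next to it in mean level, miR-328-3p ranked directly above, with 15962 and 18850 CPM in MI and 21118 and 24331 CPM in sham libraries. miR-486a-3p, the 3p arm of a red cell miRNA, ranked directly below and went the other way, with 18684 and 16633 CPM in MI and 12413 and 13954 CPM in sham libraries.

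miR-425-5p had 1160 and 687 CPM in the MI libraries, against 472 and 679 CPM in the sham libraries, from 254 and 93 UMIs in MI and 178 and 109 UMIs in sham libraries. The groups did not overlap, but MI replicate 2 and sham replicate 2 were almost equal, with MI replicate 1 above and sham replicate 1 below them. The Poisson interval of MI replicate 1 was 1022 to 1312 CPM, above the 555 to 842 CPM of MI replicate 2. The interval of sham replicate 1, 405 to 547 CPM, lay below the 558 to 819 CPM of sham replicate 2, so within both groups the replicates differed by more than counting error. The mean was 924 ± 334 CPM in MI and 576 ± 147 CPM in sham libraries (SD, n = 2 each), a 1.60-fold higher mean after MI. The log2 fold change was 0.74 (SE 0.40), and it was 0.10 without MI replicate 1 and 0.46 without sham replicate 1. miR-133b-3p, a miRNA of muscle next above it in mean level, had 1187 and 1515 CPM in MI and 175 and 162 CPM in sham libraries. miR-320-3p, next below it, had 854 and 894 CPM in MI and 488 and 717 CPM in sham libraries.

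The 3p arms were scarce. miR-191-3p had 95.9 and 192 CPM in MI libraries, against 130.0 and 118 CPM in sham libraries, from 21 and 26 UMIs in MI and 49 and 19 UMIs in sham libraries. The groups overlapped, with the MI libraries on either side of the sham libraries. Its mean was 144 ± 68.0 CPM in MI and 124 ± 8.16 CPM in sham libraries (SD, n = 2 each), and its log2 fold change was 0.20 (SE 0.65). miR-425-3p was unlisted in MI replicate 1, where it had at most 9 UMIs or 41.1 CPM. It stood just inside the listing limit in MI replicate 2, with 10 UMIs or 73.9 CPM, and in sham replicate 2, with 11 UMIs or 68.6 CPM. Sham replicate 1 had 62 UMIs of it or 164 CPM, the highest of the 4 libraries. No fold change is given for miR-425-3p, because its count in MI replicate 1 is not known.

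In all 4 libraries the order was miR-191-5p first and miR-425-5p second. The order of the 3p arms was not settled. In sham replicate 1 miR-425-3p, at 164 CPM (interval 126 to 211), stood above miR-191-3p at 130.0 CPM (interval 96.1 to 172), with overlapping intervals. In MI replicate 1 miR-191-3p, at 95.9 CPM, stood above miR-425-3p, which was unlisted there with at most 41.1 CPM. In MI replicate 2 and sham replicate 2 miR-191-3p was also the higher of both. UMIs count molecules, and the 4 arms are 21 to 23 bases long, so these levels need no correction for length. How well each sequence is ligated and copied was not tested.

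**Figure D1:**
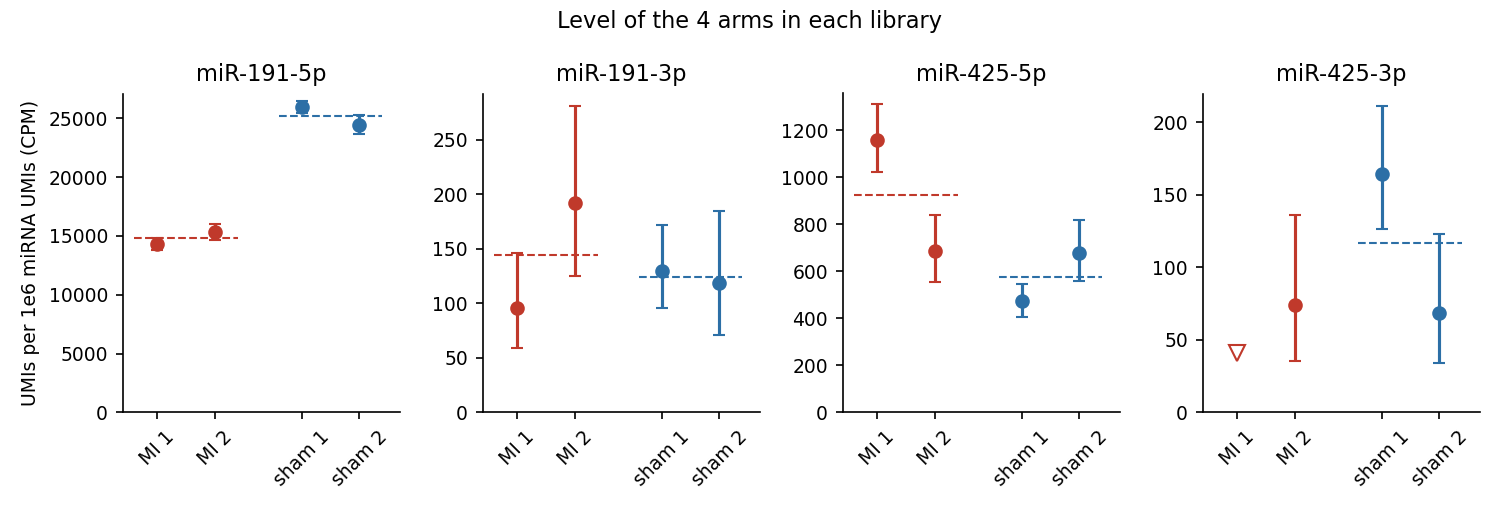
Level in CPM (linear axes from 0) of each arm in each MI (red) and sham (blue) library, with 95% exact Poisson intervals as bars and the group mean as a dashed line. The open triangle marks the 41.1 CPM that 9 UMIs would give in MI replicate 1, where miR-425-3p was unlisted. miR-191-5p lies lower in both MI libraries, and miR-425-5p lies high in MI replicate 1.

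The edgeR quasi-likelihood test ran over 267 miRNAs, of which 6 (2.25%) passed an adjusted p of 0.05, 4 higher and 2 lower after MI. All 4 members passed the filter on low counts and were tested, and none of them passed the threshold. For miR-191-5p this depended on the processing. It passed with DESeq2 size factors, with library size alone, with the DESeq2 Wald test and without a low-count filter. It did not pass under the other settings that used all 4 libraries. In the fit as reported, 16 of the 267 miRNAs were higher and 23 lower at an unadjusted p of 0.05. The CPM of MI and sham libraries did not overlap for 2 members, miR-191-5p and miR-425-5p. The same held for 129 of the 267 tested miRNAs (48.3%), so groups that do not overlap were common among all miRNAs. Nothing about the cluster is read from these counts, since its members were put forward with this contrast known.

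The second replicates of both groups share the word "plus" in the names of their read sets, and those of both MI libraries begin with M2. The meaning of either tag was not given in the sources used here. Whatever M2 stands for cannot be told apart from the MI surgery in these libraries. Among libraries without the word "plus", the CPM of miR-191-5p in MI replicate 1 was 0.550 times that in sham replicate 1. Among libraries with it, the CPM in MI replicate 2 was 0.627 times that in sham replicate 2. For miR-425-5p the same ratios were 2.46 and 1.01. Both ratios of miR-191-5p lay below 1, as any such pairing must when both MI libraries lie below both sham libraries. They are thus no separate support for its lower level. miR-425-5p was higher after MI in the pair without the word and nearly equal in the other. This difference between the pairs was not tested.

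**Figure D2:**
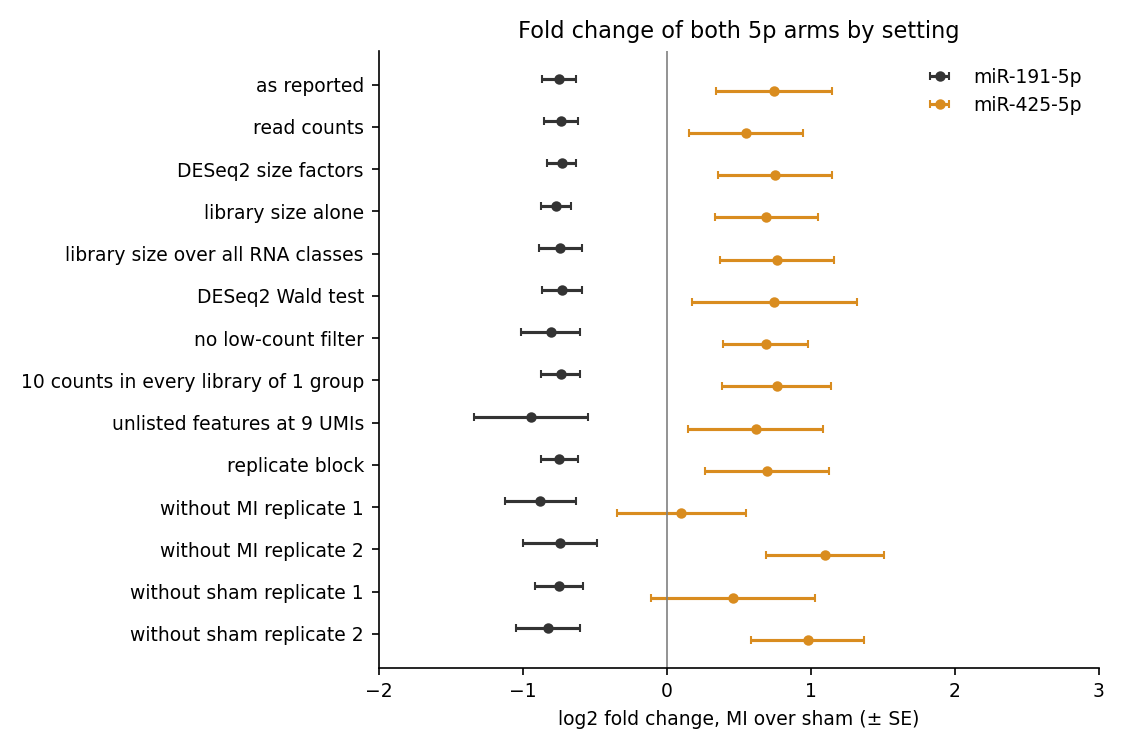
Log2 fold change, MI over sham, of miR-191-5p (dark) and miR-425-5p (orange) with its standard error as a bar, for the fit as reported and 13 other settings. miR-191-5p lies below 0 in every setting drawn, and miR-425-5p lies above 0 in every setting drawn but nears 0 without MI replicate 1.

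Setting the 2 5p arms against each other within a library removes any effect of library size. The ratio of miR-191-5p to miR-425-5p was 12.3 and 22.3 in the MI libraries, against 55.0 and 36.0 in the sham libraries. Both MI libraries had fewer miR-191-5p molecules per miR-425-5p molecule than both sham libraries. As a share of the pair's UMIs, miR-425-5p was 7.51% (95% Clopper-Pearson interval 6.65% to 8.45%) and 4.29% (3.48% to 5.23%) in MI libraries, against 1.79% (1.54% to 2.07%) and 2.70% (2.22% to 3.25%) in sham libraries. The 4 intervals do not overlap, so also the libraries of 1 group differed by more than counting error. On the log2 scale the ratio was 4.05 ± 0.61 in MI and 5.48 ± 0.43 in sham libraries (SD, n = 2 each), a difference of -1.42. With 2 libraries a group an exact permutation test cannot give a p below 0.333, and none is given. Counted in reads in place of UMIs, the difference was -1.22. It was -2.16 between the first replicates and -0.69 between the second replicates.

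Both members were also set against 10 other miRNAs that serve as references in plasma qPCR, by the mean log2 CPM of those 10. The log2 ratio of miR-191-5p to them was 2.34 and 2.60 in MI libraries, and 3.32 and 3.22 in sham libraries. That of miR-425-5p was -1.29 and -1.88 in MI libraries, and -2.46 and -1.95 in sham libraries. The differences of the means, -0.80 for miR-191-5p and 0.62 for miR-425-5p, had the signs of the edgeR fold changes. They come from the same 4 libraries and are no separate support. The references include miR-24-3p, among the nearest in pattern to miR-191-5p, and miR-484, among the nearest to miR-425-5p, as described below. Of the 10 reference miRNAs none passed the test, 7 had a log2 fold change above 0 and 3 below, and the median was 0.16, against -0.01 over all 267 tested. The most abundant of them was miR-16-5p, which is also in the erythroid list below. It had 332546 ± 8017 CPM in MI and 298042 ± 23657 CPM in sham libraries (SD, n = 2 each). let-7i-5p had 29568 ± 1551 CPM in MI and 40227 ± 4624 CPM in sham libraries, and miR-93-5p had 8771 ± 992 CPM in MI and 7538 ± 1151 CPM in sham libraries.

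The arms of each hairpin were compared in the same way. For miR-191 the 5p arm outnumbered the 3p arm 149-fold and 79.8-fold in MI libraries, and 199.7-fold and 207-fold in sham libraries. The 3p arm was 0.667% (interval 0.413% to 1.02%) and 1.24% (0.810% to 1.81%) of the hairpin's UMIs in MI libraries, and 0.498% (0.369% to 0.658%) and 0.482% (0.290% to 0.751%) in sham libraries. The interval of MI replicate 1 overlaps both sham intervals, while that of MI replicate 2 lies above them. On the log2 scale the arm ratio was 6.77 ± 0.64 in MI and 7.67 ± 0.03 in sham libraries (SD, n = 2 each), a difference of -0.90 that was -0.45 without MI replicate 2. The mean CPM of the 3p arm was not lower after MI, although MI replicate 1 had the lowest of its 4 values and the 3p counts are small.

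For miR-425 the arms were far closer and the ratio varied widely. The 5p arm outnumbered the 3p arm at least 28.2-fold in MI replicate 1, taking the 3p arm at 9 UMIs, and 9.30-fold in MI replicate 2. It did so 2.87-fold in sham replicate 1 and 9.91-fold in sham replicate 2. The second replicates of MI and sham were alike, and the first replicates lay on opposite sides of them. In sham replicate 1 the 3p arm was 25.8% (interval 20.4% to 31.9%) of the hairpin's UMIs, against 9.17% (4.67% to 15.8%) in sham replicate 2, so the sham libraries differed from each other by more than counting error.

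**Figure D3:**
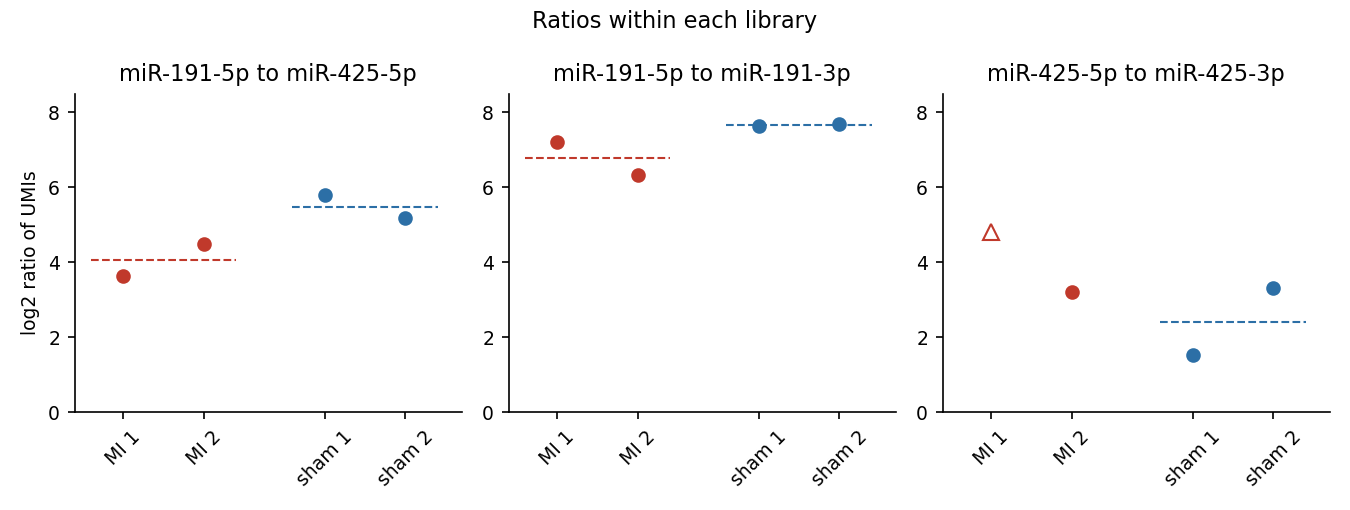
Log2 ratio of UMIs within each MI (red) and sham (blue) library for the 2 5p arms and for the 5p against the 3p arm of each hairpin, with group means as dashed lines. The open triangle is a lower bound, with miR-425-3p taken at 9 UMIs. The ratio of miR-191-5p to miR-425-5p is lower in both MI libraries.

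Reads per UMI show how often each captured molecule was sequenced. miR-191-5p had 12.1 and 12.6 reads per UMI in MI libraries, and 14.4 and 12.3 in sham libraries. miR-425-5p had 11.6 and 12.2 in MI libraries, and 16.8 and 13.1 in sham libraries. Over all miRNAs the median was 10.8 and 11.5 in MI libraries, and 12.9 and 11.3 in sham libraries. Both members were thus sequenced somewhat more often per molecule than the typical miRNA in each library, and sham replicate 1 was the most deeply read for both.

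Other miRNAs from neighbouring hairpins were compared in the same way, using a list of 24 such pairs. Both partners were listed in all 4 libraries for 19 pairs. The size of the difference in log2 ratio, MI minus sham, was 1.42 for miR-191-5p to miR-425-5p and had a median of 0.39 over the other 18, with a range of 0.011 to 3.82. The ratio of miR-191-5p to miR-425-5p had the second largest difference of the 19, and took place 4 without MI replicate 1 and place 5 without sham replicate 1. The largest was that of miR-206-3p to miR-133b-3p, 2 miRNAs of muscle, with a difference of -3.82. MI and sham libraries did not overlap for 8 of the 19 pairs, the cluster included. The ratio of miR-17-5p to miR-20a-5p, whose hairpins lie 402 bases apart in the miR-17-92 cluster, differed by -0.95, but by -0.25 without sham replicate 2, which stood apart at a log2 ratio of 1.70 against 0.30 in sham replicate 1. That of miR-221-3p to miR-222-3p, 504 bases apart, differed by -0.15 with overlapping groups, and by 0.20 without MI replicate 1. All pairs share the same 4 libraries, some of their miRNAs come from more than 1 hairpin, and the differences between pairs were not tested. Because the cluster was put forward with this contrast known, its place among the pairs is a description. That place is no support for an unusual ratio.

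**Figure D4:**
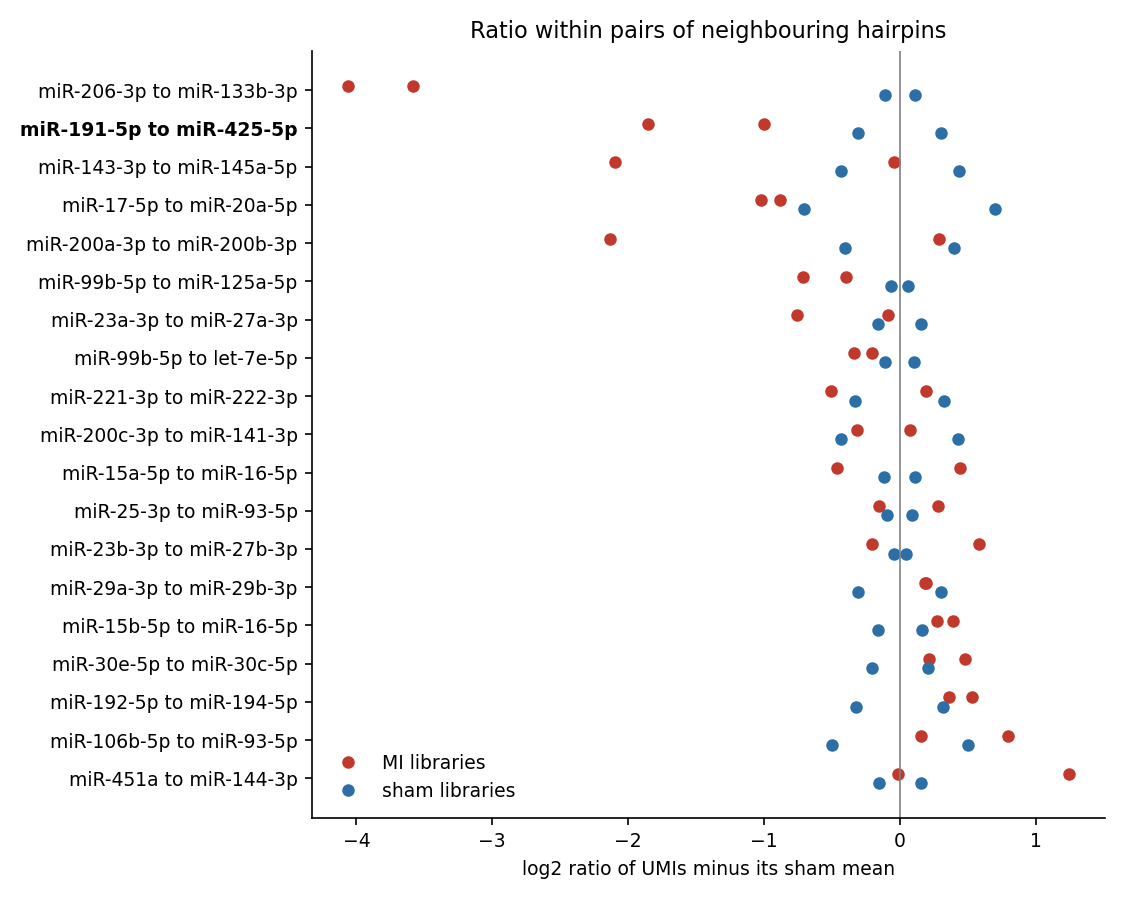
Log2 ratio of UMIs of 19 pairs of miRNAs from neighbouring hairpins, minus the mean of the sham libraries, for each MI (red) and sham (blue) library. The pair miR-191-5p to miR-425-5p (bold) lies below its sham libraries in both MI libraries, and the pair miR-206-3p to miR-133b-3p lies farther below.

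The miRNAs most like each 5p arm across the 4 libraries were not the same. Likeness was measured as the distance between profiles of log2(CPM + 1), each centred on its own mean over the 4 libraries, so a smaller value means a more similar pattern. The 5 nearest of 266 miRNAs to miR-191-5p were miR-3970 (distance 0.08), miR-21a-5p (0.09), miR-24-3p (0.14), miR-340-5p (0.17) and miR-146b-5p (0.22). The median distance was 1.25. miR-21a-5p, abundant in many cell types including platelets, had 2137 and 2239 CPM in MI and 3748 and 3366 CPM in sham libraries. miR-24-3p, made in many cell types, had 2836 and 2823 CPM in MI and 4660 and 4269 CPM in sham libraries.

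The 5 nearest to miR-425-5p were miR-877-3p (0.18), miR-22-3p (0.31), miR-484 (0.39), miR-486b-5p (0.50) and miR-1893 (0.52), against a median of 1.48. miR-877-3p, and miR-146b-5p among those nearest to miR-191-5p, had only 88.7 CPM in MI replicate 2. That is near the listing limit, as 10 UMIs are 73.9 CPM there, so counting error limits their distances. miR-22-3p, an abundant miRNA of heart and blood, had 918 and 702 CPM in MI and 435 and 704 CPM in sham libraries. miR-486b-5p is abundant in red cells, and its sequence is nearly that of miR-486a-5p, so how counts were split between them is uncertain. It had 146091 and 120022 CPM in MI and 95921 and 105347 CPM in sham libraries. miR-425-5p itself was the 164th nearest miRNA to miR-191-5p, at a distance of 1.61. These distances describe 4 libraries, carry no test, and say nothing of shared control.

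**Figure D5:**
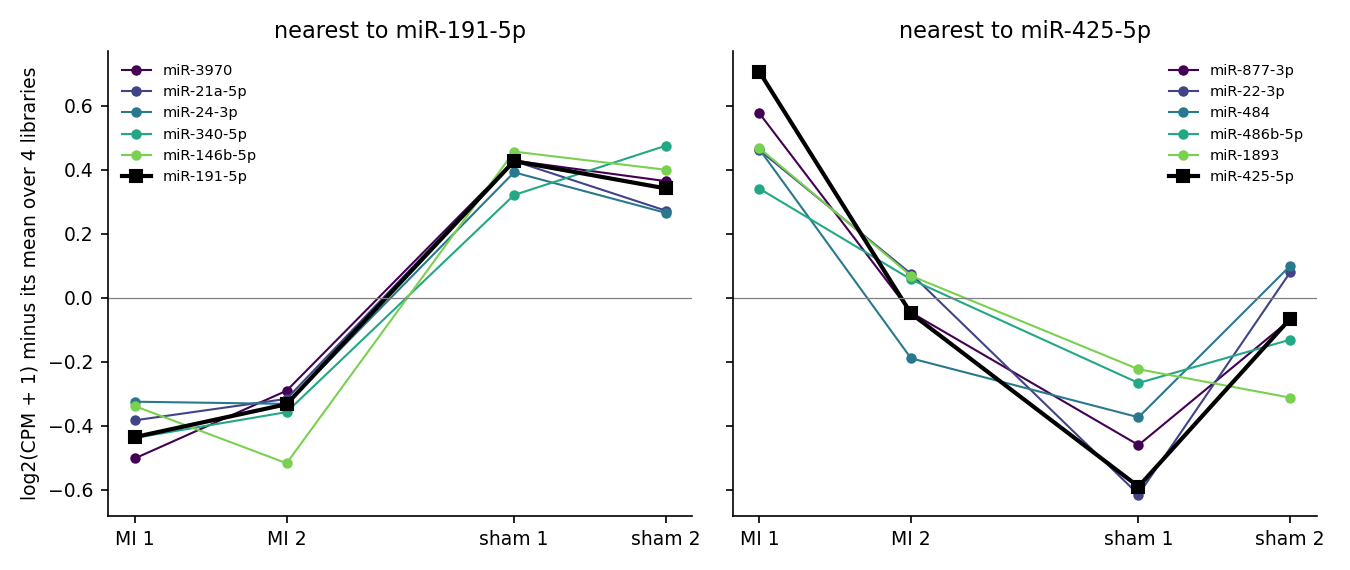
Log2(CPM + 1) minus its mean over the 4 libraries for miR-191-5p (left, black) and miR-425-5p (right, black) with the 5 miRNAs nearest to each (coloured). Lines only guide the eye between MI and sham libraries. The left profiles are low in both MI libraries, and the right profiles are high in MI replicate 1.

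Lists of marker miRNAs of cells that release vesicles into blood are given by their counts and levels, and their part in the levels of the cluster was not tested. No list was tested as a set. Some miRNAs stand in more than 1 list, such as miR-223-3p (platelet and myeloid) and miR-16-5p (reference and erythroid). Of the miRNAs named above for their pattern, miR-21a-5p, miR-24-3p and miR-22-3p are in the platelet list. miR-146b-5p is in the lymphoid list and miR-486b-5p in the erythroid list. The 9 erythroid miRNAs were all tested and all had a log2 fold change above 0, with a median of 0.44 and none past the threshold. Their summed level was 543606 and 519707 CPM in MI, and 461405 and 437286 CPM in sham libraries. With miR-16-5p in it, this list took most of the miRNA UMIs of the MI libraries. miR-16-5p alone held 326877 and 338215 CPM in MI, and 314770 and 281313 CPM in sham libraries. Of 11 tested platelet and megakaryocyte miRNAs 7 lay below 0 and none passed (median -0.29). They summed to 37340 and 43322 CPM in MI, and 49770 and 44313 CPM in sham libraries, while miR-197-3p and miR-28a-5p were unlisted.

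Of 5 tested lymphoid miRNAs 4 lay below 0 and none passed (median -0.82). The lymphoid list summed to 8833 and 9791 CPM in MI, and 15054 and 16865 CPM in sham libraries, with miR-342-5p unlisted. Of 8 tested myeloid miRNAs 6 lay below 0 and 1, miR-146a-5p, a brake on inflammatory signalling, fell, with a log2 fold change of -1.22 (SE 0.13, median of the list -0.37). The myeloid list summed to 27562 and 30672 CPM in MI, and 42150 and 37376 CPM in sham libraries. Of 6 tested endothelial miRNAs 5 lay below 0 and none passed (median -0.13). The endothelial list summed to 17295 and 20158 CPM in MI, and 20370 and 16460 CPM in sham libraries.

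All 4 tested hepatocyte miRNAs lay below 0. Of these 1 passed the threshold, miR-122-5p, the main miRNA of the liver. It had 11253 and 12022 CPM in MI and 34960 and 35195 CPM in sham libraries. The median of the list was -0.53, and the list summed to 15185 and 15709 CPM in MI, and 39742 and 40311 CPM in sham libraries, with miR-122-3p and miR-885-5p unlisted. Of 5 tested miRNAs of cardiac and skeletal muscle 4 lay above 0 and 3 passed, miR-133a-3p, miR-133b-3p and miR-208a-3p (median of the list 2.70). miR-133a-3p, of heart and skeletal muscle, had 3626 and 4389 CPM in MI and 671 and 573 CPM in sham libraries. miR-206-3p, of skeletal muscle, had 4517 and 4145 CPM in MI and 7397 and 7990 CPM in sham libraries and did not pass the threshold. The muscle list summed to 11103 and 11719 CPM in MI, and 9270 and 9423 CPM in sham libraries, with miR-208b-3p and miR-499-5p unlisted. The median log2 fold change over all miRNAs tested was -0.01.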

How the data were processed

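Per the labels' protocols, plasma vesicles were pelleted by differential centrifugation, Trizol and chloroform gave their RNA, and the QIAseq miRNA kit was used for libraries. The authors deposited a UMI count and a read count for each feature, neither normalized, per the file headers. Names of aligner and build were not given in the sources used here. All 4 tables of uncharacterised reads held no features.

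Groups and replicate numbers come from the labels. An unlisted miRNA was entered as 0 in fits. UMI counts of all miRNAs were fitted with edgeR 4.0.16 (R 4.3.3): TMM, filterByExpr by group (minimum count 10, minimum total 15), quasi-likelihood F-test, two-sided, Benjamini-Hochberg over all tested, threshold 0.05. The standard error of a fold change is its size over the root of F. The fit was run on simulated counts with less spread between replicates than these libraries, whose common dispersion was 0.364. That run therefore does not show how the fit performs at the spread of these libraries. Poisson and Clopper-Pearson intervals have a 95% level. UMI counts depend on depth, which limits the 3p arms most.

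Named miRNAs are the 4 arms, the 5 nearest in pattern to each 5p arm, rank neighbours, the leading members of each list by level (at most 3), and listed pairs, given in part. miR-146a-5p, miR-133b-3p and miR-208a-3p among the lists were named after their values were seen. The members and lists were chosen with earlier results of these data known. Alternatives were read counts, DESeq2 1.42.0 (size factors, Wald test), other library sizes and filters, unlisted miRNAs at 9 UMIs, a replicate block and leaving out each library. Comparing same-numbered libraries, and leaving out each library for the listed pairs, were added after the data were seen.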

Additional observations from a re-analysis of the deposited data

How the results depend on the processing

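miR-191-5p kept a negative log2 fold change in all 13 alternatives, from -0.94 (unlisted miRNAs at 9 UMIs) to -0.73, and from -0.88 to -0.74 when 1 library was left out. In such fits the lone library of a group is assumed to vary like the other group's. Between first replicates it was -0.86 and between second replicates -0.67. miR-425-5p stayed above 0, from 0.55 to 0.76, but from 0.10 (without MI replicate 1) to 1.10 (without MI replicate 2) when 1 library was left out, 1.30 between first and 0.017 between second replicates. The sign of miR-191-3p turned without MI replicate 2 (-0.29) and with 9 UMIs for each unlisted miRNA (-0.049), and leaving out 1 library gave -0.29 to 0.47. The log2 ratio difference of both 5p arms ran from -1.85 to -0.996 when 1 library was left out, against -2.16 and -0.69 in the same-numbered pairs, and that of the miR-191 arms from -1.35 to -0.45. The calls over all miRNAs were 8 higher and 7 lower with the DESeq2 Wald test, 8 and 12 without a filter, 5 lower with unlisted miRNAs at 9 UMIs, 4 lower with DESeq2 size factors and 5 lower with library size alone. They were 0 to 13 higher and 0 to 12 lower when 1 library was left out, with 0 in both directions without sham replicate 1, where 15 were higher and 15 lower at an unadjusted p of 0.05. Under the replicate block 4 were higher and 2 lower, as without it, and the log2 fold changes of miR-191-5p and miR-425-5p were -0.75 and 0.70. The first replicates of MI and sham deviated together from their group means (r = 0.25 over 189 miRNAs), and the second replicates share the tag "plus" in their read set names. Neither the labels nor the headers say what the numbers or the tag stand for, and there are only 2 of each, so they are not taken as pairs. Without a filter the median of all log2 fold changes was -0.39. Depth limits the 3p arms, which had 10 to 62 UMIs where listed.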
